A study of Homo sapiens with 21 samples.

Results

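HCT-116 cells given HCC+ extracellular vesicles (EVs) were set against the same cells given HCC- EVs at the 2 lower doses of the study, 0.24 and 0.048 mg/mL. The libraries were chosen by EV source and dose as labelled, with no measured value used, and they are 12 of the 21 libraries of the series. HCT-116 is an established line from a human colorectal carcinoma, and EVs are membrane-enclosed particles shed by cells. HCC+ EVs were taken from the serum of HCC patients and HCC- EVs from that of healthy people, both by the GlyExo-Capture method. Each source and dose had 3 libraries, so 6 HCC+ libraries faced 6 HCC- libraries. The other 9 libraries were 3 of each source at 1.2 mg/mL and 3 of cells without EVs, the blank. All cells were kept in DMEM with exosome-depleted serum, and poly(A) RNA was counted per gene. The labels give neither the number of serum donors behind an EV preparation, nor the exposure time, nor whether separate cultures gave the 3 libraries of a group. The p-values therefore measure only the spread between these libraries, which may be technical, and the EV source cannot be told apart from the EV preparation.

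EVs carry proteins, lipids and RNA between cells, and a cell that takes them up receives membrane and cargo, serum proteins bound to the vesicles included. Cultured cells take up iron mainly as transferrin through the transferrin receptor, which is encoded by TFRC. When iron is scarce in the cell, iron regulatory proteins bind hairpins called iron-responsive elements, which stabilises TFRC mRNA and blocks translation of the ferritin mRNAs FTH1 and FTL.

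The 12 libraries held 34.08 to 64.01 M counts (M, mega-counts), with medians of 49.2 M for HCC+ and 48.6 M for HCC-. Of 12 colon epithelium markers, 9 were tested, with EPCAM, KRT8 and KRT18 abundant, while CEACAM5 had 0 counts. CDX1 and VIL1 had at most 2 and 10 counts in a library, and KRT20 had 52 to 143. Levels are in CPM, each gene's counts scaled by library size with TMM factors. The summed level of the colon epithelium list was 4183 to 4658 CPM in HCC+ and 3989 to 5212 CPM in HCC-. Of this sum KRT8 alone made 2124 to 2798 CPM, KRT18 599 to 791 CPM and KRT19 650 to 1015 CPM. Hepatocyte and liver markers summed to 2.76 to 4.0 CPM in HCC+ and 3.18 to 4.88 CPM in HCC-, and APOB, APOC3, FGA and AFP had 0 counts in the 12 libraries. Erythroid markers summed to 0.121 to 0.470 CPM in HCC+ and 0.144 to 0.453 CPM in HCC-, and leukocyte markers to 1.75 to 3.16 and 1.22 to 2.72 CPM. Platelet markers summed to 26.0 to 30.5 and 23.3 to 32.8 CPM, with PPBP, PF4 and GP9 at 0 counts and NRGN alone at 19.1 to 27.2 CPM. Endothelial markers summed to 0.931 to 1.76 and 0.901 to 2.02 CPM, and fibroblast markers to 15.6 to 17 and 15.6 to 21.1 CPM. In the fibroblast list COL1A1 alone was at 15.1 to 20.5 CPM, while COL1A2, DCN and LUM had 0 counts. Over the 2 lower doses, 3 of 14 hepatocyte and liver, 4 of 7 platelet and 0 of 7 erythroid markers had enough counts to be tested. So did 3 of 13 leukocyte, 4 of 6 endothelial and 2 of 7 fibroblast markers. No tested marker of another cell type passed between the sources, which says nothing of the markers not tested.

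The 3 HCC- libraries at 0.048 mg/mL stood apart from the other 9. On the first principal component, which held 15.6% of the variance, they lay at 24.5 to 26.7 and the other 9 at -25.4 to 3.56. They also differed by the base composition of their genes. The GC trend of a library, the mean log2 CPM deviation of its 25% of genes richest in GC minus that of the 25% poorest, was 0.25, 0.31 and 0.30 in these 3 libraries and -0.28 to 0.08 in the other 9. What set this trend was not tested. Results that rest on these libraries are set below beside values at 0.24 mg/mL, where the contrast of means leaves them out, or with trends removed. With trends removed means after a correction of every library for GC content and gene length. The values at 0.24 mg/mL come from a fit of all 12 libraries. The 3 libraries that stood apart therefore still enter its scaling and the estimate of spread behind its p-values.

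**Figure D1:**
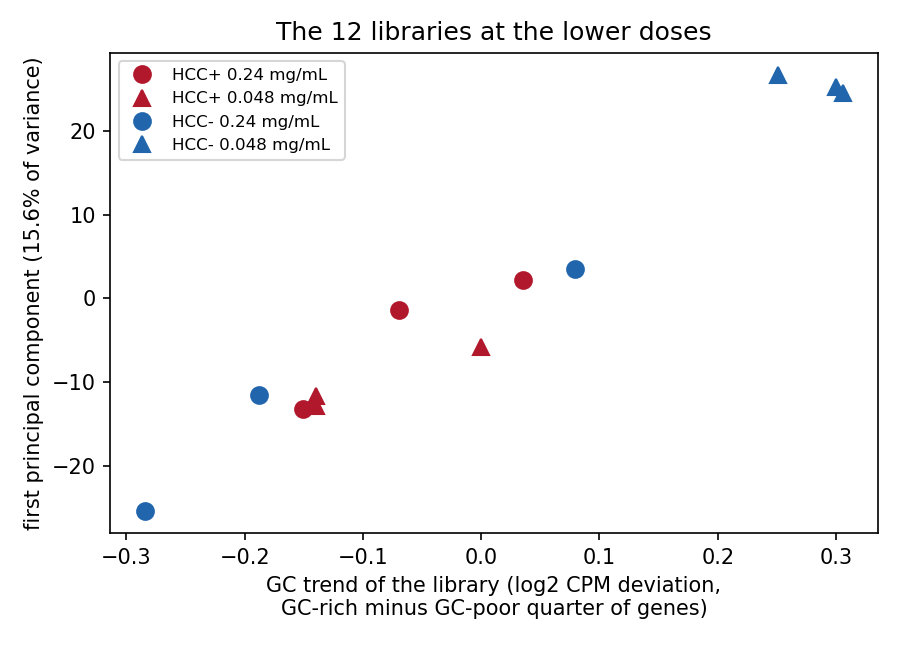
Each point is 1 of the 12 libraries, placed by its GC trend (x axis, log2 CPM deviation of the GC-richest minus the GC-poorest 25% of genes) and by the first principal component of log2 CPM (y axis). The 3 HCC- libraries at 0.048 mg/mL lie at 24.5 to 26.7 on the component, above the other 9.

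Over both lower doses, with dose as a block, TFRC was the sole gene of 17506 tested that passed the test between the sources. It was higher with HCC+ EVs, at 500 ± 41.2 CPM (SD, n = 6) against 379 ± 68.0 CPM with HCC- EVs. The transferrin receptor gene lies at chr3:196027183-196082096 on the minus strand (GRCh38), and 2 annotated genes on the other strand overlap it. In edgeR's quasi-likelihood test with Benjamini-Hochberg adjustment over all genes tested, the log2 fold change was 0.42 ± 0.05 (standard error), with an adjusted p of 0.000662. This is a 1.34-fold difference, with a 95% interval of 1.24 to 1.44. The share of all tested genes that passed was 0.00571%, with 1 higher and 0 lower, and 1428 genes had an unadjusted p under 0.05.

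The sequences below are shown because they are the elements by which TFRC and ferritin mRNAs are known to answer to cell iron. A script looked on the sense strand of 1 transcript per gene (the longest with a coding sequence in GENCODE v29, GRCh38) for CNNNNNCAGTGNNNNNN with 5 paired bases on the sides of the loop. Of 13627 tested genes with such a transcript, 211, or 1.55%, held a match anywhere in it, among them 4 of 8 searched genes of the iron handling list. TFRC held 4 matches, all in its 3' UTR on the minus strand of chromosome 3, and the capitals mark the loop of the hairpin.
TFRC chr3:196050979-196051007: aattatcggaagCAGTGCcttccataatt
TFRC chr3:196050575-196050603: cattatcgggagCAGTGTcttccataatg
TFRC chr3:196050510-196050538: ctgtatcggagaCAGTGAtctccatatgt
TFRC chr3:196050463-196050491: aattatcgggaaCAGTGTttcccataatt
The ferritin genes each held 1 match in the 5' UTR, on the minus strand for FTH1 and the plus strand for FTL.
FTH1 chr11:61967574-61967602: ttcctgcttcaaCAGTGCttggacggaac
FTL chr19:48965335-48965363: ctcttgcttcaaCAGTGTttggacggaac
SLC40A1, the iron exporter ferroportin, held 1 match in its 5' UTR too. A match is a description of the letters and says nothing of binding in these cells.

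TFRC levels were as follows in the libraries. They were, at 0.24 mg/mL, 574, 509 and 505 CPM with HCC+ EVs and 437, 427 and 457 CPM with HCC- EVs. With the dose of 0.048 mg/mL they were 486, 461 and 465 CPM with HCC+ EVs and 312, 317 and 325 CPM with HCC- EVs. All 6 HCC+ libraries lay above all 6 HCC- libraries, which held for 0.189% of the 12178 genes whose mean log2 CPM was 1 or more (expressed genes). The counts behind these levels were 16184 to 30535 reads with HCC+ EVs and 10743 to 22358 with HCC- EVs.

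The TFRC difference did not rest on 1 library or on the scaling. It passed in each of the 12 fits that left out 1 library, and in all 21 alternative fits together the log2 fold change stayed between 0.36 and 0.45. With GC and length trends removed it was 0.36 ± 0.03, with an adjusted p of 8.18e-09.

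**Figure D2:**
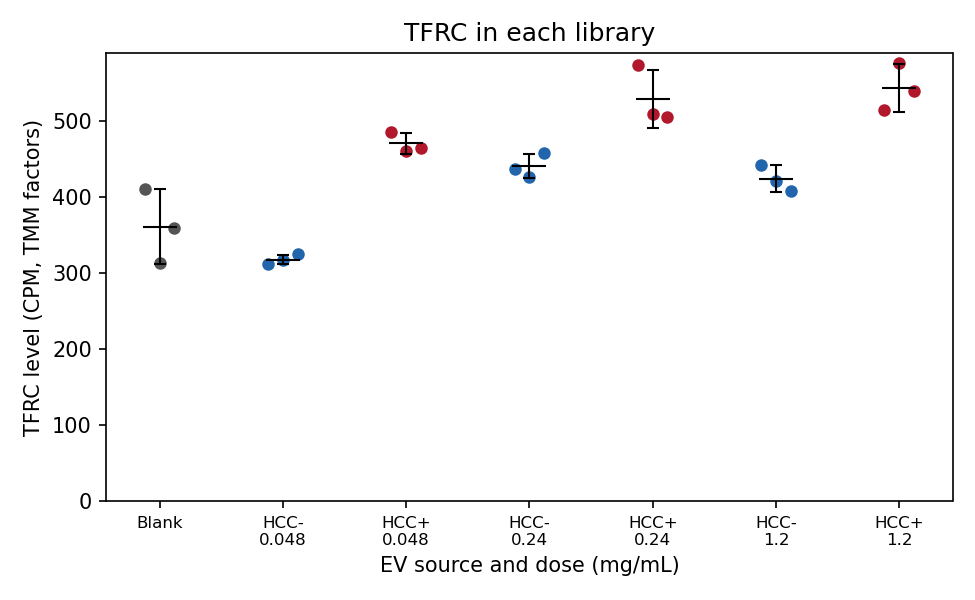
TFRC level (y axis, CPM with TMM factors) in each of the 21 libraries, by EV source and dose (x axis), where points are libraries, long bars are means of 3 and whiskers are ± 1 SD. At each dose the 3 HCC+ libraries lie above the 3 HCC- libraries, and the 3 HCC- libraries at 0.048 mg/mL, at 312 to 325 CPM, are the lowest of those with EVs.

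Each dose was then fitted with 4 group means. At 0.048 mg/mL the TFRC log2 fold change was 0.57 ± 0.05, with an adjusted p of 7.73e-08, where 16.0% of 17993 genes passed and 44.6% of expressed genes had libraries that did not overlap, and with trends removed it was 0.43 ± 0.04, with an adjusted p of 7.63e-09. For 0.24 mg/mL, where the 3 libraries that stood apart take no part in the contrast, it was 0.26 ± 0.05 with an adjusted p of 0.223, which did not pass. With trends removed it was 0.29 there and passed, with an adjusted p of 0.00015, as it did in DESeq2, with 0.0162. Over 14 alternatives at 0.24 mg/mL it ran from 0.20 to 0.30 and passed in 4. It passed in 0 of the 6 fits there that left out a library. The difference between the 2 doses, 0.24 minus 0.048 mg/mL, was -0.31 ± 0.07 with an adjusted p of 0.016, and -0.13 with an adjusted p of 0.361 with trends removed.

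At 1.2 mg/mL the TFRC levels were 514, 576 and 539 CPM with HCC+ EVs and 443, 422 and 408 CPM with HCC- EVs. The log2 fold change at that dose was 0.36 ± 0.07 with an adjusted p of 0.000135, where 35.3% of genes tested passed. The source effect at 1.2 mg/mL minus the mean of the lower doses was -0.06 ± 0.08, with a 95% interval of -0.23 to 0.11 and an adjusted p of 0.655. Over 25 alternatives this difference ran from -0.23 to -0.02 and passed in 1. Of the 12178 genes, 19, or 0.156%, had HCC+ libraries on 1 and the same side of the HCC- libraries at all 3 doses, TFRC among them.

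The blank libraries placed this difference. They held TFRC at 411, 313 and 359 CPM. HCC+ EVs over the lower doses gave a log2 fold change of 0.47 ± 0.06 against the blank, with an adjusted p of 0.000632, the sole gene of 18203 that passed, or 0.00549%. HCC- EVs gave 0.05 ± 0.06 against the same 3 blank libraries, with an adjusted p of 0.662. Over 17 alternatives this value ran from -0.04 to 0.17 and passed in 1, with trends removed and a replicate block, at an adjusted p of 0.0294. The 2 contrasts share the blank, so they are not independent, and the HCC- value averages over libraries that lay at 427 to 457 CPM at 0.24 mg/mL and at 312 to 325 CPM at 0.048 mg/mL. Without blank replicate 2, the lowest of the blank in TFRC, the HCC- value was -0.04 and 4044 genes passed in that contrast in place of 1, and 513 in place of 1 in the HCC+ contrast. With a replicate block alone 422 genes passed in the HCC- contrast.

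TFRC was the only member called of the 8 tested of 9 in the iron handling list over the lower doses, and the median log2 fold change of the list was 0.00, as it was for all genes tested. At 0.048 mg/mL 3 members were higher and 3 lower, where 7.76% of genes tested were higher and 8.29% lower. SLC11A2, a transporter that moves iron out of endosomes, was higher, with 54.3, 51.6 and 55.0 CPM in HCC+ against 44.5, 41.8 and 45.4 CPM in HCC-, a log2 fold change of 0.30 ± 0.06. IREB2, which encodes an iron regulatory protein, was higher by 0.26 ± 0.05. Neither passed with trends removed, where SLC11A2 was at 0.18 and IREB2 at 0.06, or at 0.24 mg/mL, where they were at 0.05 ± 0.06 and -0.05 ± 0.05.

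FTH1, the ferritin heavy chain, was lower at 0.048 mg/mL. Its levels there were 576, 509 and 478 CPM with HCC+ EVs and 648, 636 and 651 CPM with HCC- EVs. These did not overlap, as was so for 44.6% of expressed genes at that dose. The log2 fold change was -0.30 ± 0.05, with an adjusted p of 0.00147, and -0.25 with trends removed, with an adjusted p of 0.0236. Its levels at 0.24 mg/mL were 510, 498 and 534 CPM with HCC+ EVs and 499, 496 and 507 CPM with HCC- EVs, a log2 fold change of 0.04 ± 0.05. The difference between doses was 0.34 ± 0.07 with an adjusted p of 0.0134, and with trends removed it was 0.29 ± 0.08 and did not pass, with an adjusted p of 0.153. At 1.2 mg/mL FTH1 was higher with HCC+ EVs, by 0.27 ± 0.10, with an adjusted p of 0.0446.

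The other iron genes differed less. FTL, the ferritin light chain, was lower at 0.048 mg/mL by a log2 value of -0.14 ± 0.05, which was 0.02 with trends removed, and HMOX1, which frees iron from haem, by -0.23 ± 0.08, which was -0.05. ACO1, the other iron regulatory protein, was at 0.06 ± 0.05 there and SLC40A1 at 0.11 ± 0.33, and neither passed.

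The aryl hydrocarbon receptor is a ligand-activated transcription factor whose targets include cytochromes P450. The 6 tested members of its list all had a positive log2 fold change over the lower doses, with a median of 0.13, and none passed. By dose, 2 of the 6 were positive at 0.24 mg/mL, with a median of -0.02, and all 6 at 0.048 mg/mL, with a median of 0.38. CYP1A1, the best known target, was at 7.60, 4.41 and 5.09 CPM with HCC+ EVs and 3.91, 4.58 and 5.14 CPM with HCC- EVs at 0.24 mg/mL, where the groups overlapped. The 0.048 mg/mL libraries held 5.8, 5.28 and 4.86 CPM against 3.03, 3.51 and 3.84 CPM, without overlap, as for 44.6% of expressed genes. Its log2 fold change over both doses was 0.48 ± 0.13 with an adjusted p of 0.591. Alone, the 0.048 mg/mL dose gave 0.64 ± 0.18, with an adjusted p of 0.0146, and 0.72 with trends removed, with 0.0309. TIPARP, a target that in turn restrains the receptor, was higher at 0.048 mg/mL by 0.29 ± 0.06, with an adjusted p of 0.0029, and did not pass with trends removed, at 0.17, or at 0.24 mg/mL, at 0.05 ± 0.06. At 1.2 mg/mL CYP1A1 was at 28.4, 20.9 and 19.0 CPM with HCC+ EVs and 23.9, 23.3 and 29 CPM with HCC- EVs, and its source difference there was -0.16 ± 0.14, which did not pass.

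**Figure D3:**
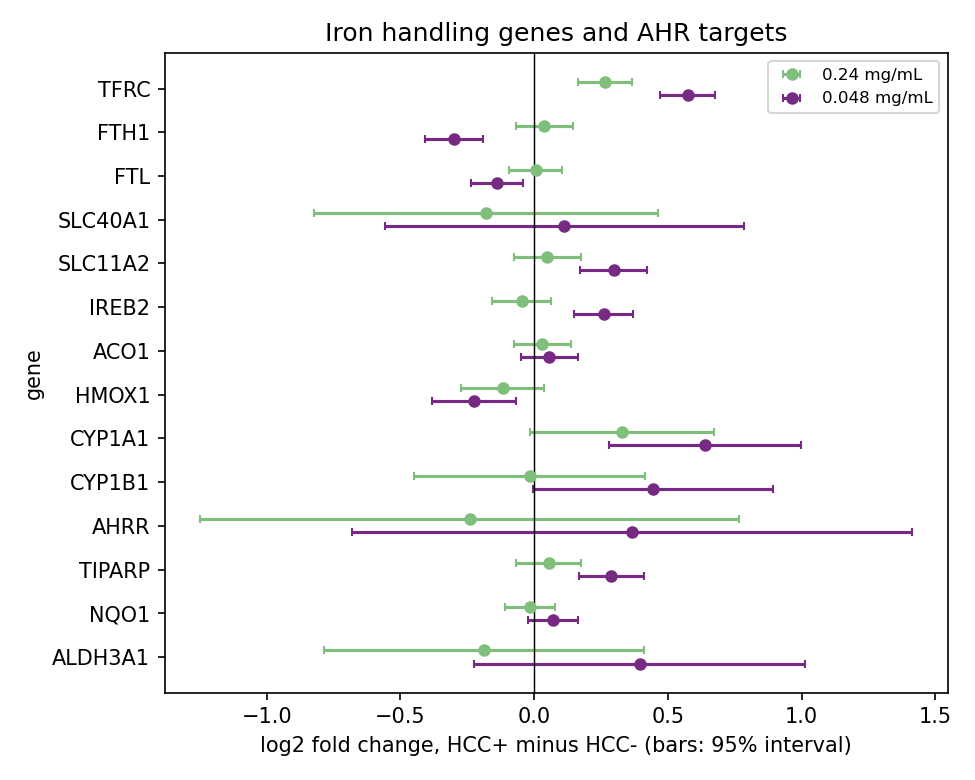
Log2 fold change of HCC+ minus HCC- (x axis) for the tested genes of the iron handling and aryl hydrocarbon receptor (AHR) lists (y axis), at 0.24 mg/mL (green) and 0.048 mg/mL (purple), with 95% intervals from the fit of 4 group means. TFRC is to the right of 0 at both doses, while FTH1 is at 0.04 and -0.30.

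The genes next in order of p did not pass, all at an adjusted p of 0.591. On the higher side, besides CYP1A1, these were XRCC2, a recombination repair factor, at 0.23 ± 0.06, GTPBP10, a GTPase of mitochondrial ribosome assembly, at 0.24 ± 0.07, and GAL3ST4, a sulfotransferase that acts on galactose, at 0.34 ± 0.09. On the lower side were DHRS3, AP1M1, GFY and the pseudogenes RPL18AP3 and RPL3P4. DHRS3, an enzyme that reduces retinal to retinol, was at 33.3, 37.8 and 39.1 CPM with HCC+ EVs and 39.0, 44.5 and 37.9 CPM with HCC- EVs at 0.24 mg/mL, where the groups overlapped. In the 0.048 mg/mL libraries it was at 34.8, 36.4 and 38.1 CPM against 50.6, 49.0 and 49.5 CPM. Its log2 fold change was -0.29 ± 0.06 over both doses. Though not called there, DHRS3 passed in 2 of 21 alternative fits of that comparison. At 1.2 mg/mL it went the other way, at 0.50 ± 0.09 with an adjusted p of 2.43e-05, and the difference to the lower doses was 0.79 ± 0.10, with an adjusted p of 7.03e-07. AP1M1, a subunit of a clathrin adaptor, was at -0.17 ± 0.05, with all 6 HCC+ libraries below all 6 HCC- libraries. GFY was at -0.46 ± 0.11, and reads of the pseudogenes, at -0.45 and -0.47, may belong to the ribosomal protein genes they resemble.

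The lack of other calls over both doses came with narrow intervals for expressed genes. Of the 12178 expressed genes, 12073, or 99.1%, had a 95% interval within 1.5-fold on either side. These intervals are for single genes and are not adjusted for their number. The median absolute log2 fold change of these genes was 0.06. Genes of few counts were measured less precisely, such as MX1, an interferon-induced GTPase, at 0.344 ± 0.0812 CPM with HCC+ EVs and 0.604 ± 0.164 CPM with HCC- EVs (SD, n = 6), a log2 fold change of -0.81 ± 0.29 that did not pass.

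Across the 35 pathway lists, the 462 distinct genes tested over both doses held 1 call, TFRC. Of these genes 9.96% had an unadjusted p under 0.05, against 8.16% of all genes tested. In the DNA replication list 8 of 20 members were positive, with a median of -0.01, and in the mitosis list 14 of 20, with a median of 0.03. In the cholesterol list 10 of 24 were positive, with a median of -0.02. In the ribosomal protein list 3 of 28 were positive, with a median of -0.06, and in the hypoxia and glycolysis list 2 of 19, with a median of -0.12. The replication histones had 8 of 9 positive, with a median of 0.18. No member of these 6 lists passed. The HCC- libraries that stood apart, at 0.048 mg/mL, enter these values. At the other dose, 0.24 mg/mL, 22 of 28 ribosomal protein genes were positive, with a median of 0.02, 16 of 19 of the hypoxia and glycolysis list, with a median of 0.06, and 4 of 9 replication histones, with a median of -0.00.

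At 0.24 mg/mL alone, 0 of 17993 genes passed edgeR's quasi-likelihood test (0%), and 526 had an unadjusted p under 0.05. DESeq2 called 2 genes there, TFRC and TET1, and the fit with trends removed called TFRC alone, or 0.00556%. In the lists with at least 5 tested members, medians lay between -0.09 and 0.14. The libraries of the 2 sources did not overlap for 6.12% of the 12178 expressed genes.

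At 0.048 mg/mL, where HCC- is the group of the 3 libraries that stood apart, 2887 genes passed, 1396 higher and 1491 lower with HCC+ EVs. The split turned with the scaling, to 1773 higher and 1159 lower with scaling to the total count alone. The differences were small: among the 2837 called genes that counted as expressed the median absolute log2 fold change was 0.26, and 36 passed 1.5-fold. The higher genes had a median GC content of 39.3% and a median length of 6756.5 bases, and the lower genes 60.2% and 4012 bases, against 49.0% and 4217 bases for all tested genes with a known value. With GC and length trends removed, 204 genes passed, or 1.13%, 68 of them (0.378%) higher and 136 (0.756%) lower. Of these 133 were also among the 2887, which is 65.2% of the shorter and 4.61% of the longer list, all with the same sign. Without HCC+ 0.048 replicate 3 or HCC- 0.048 replicate 2 the count of 2887 became 1067 and 1102, without HCC+ 0.048 replicate 2 it was 1318 and without HCC- 0.048 replicate 1 it was 1664.

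Among called genes with a mean log2 CPM of at least 1 and libraries that did not overlap, H2AC6 and LNCOC1 had the largest differences at 0.048 mg/mL. H2AC6, a histone gene, was at 7.31, 5.96 and 6.38 CPM with HCC+ EVs and 3.89, 2.77 and 3.47 CPM with HCC- EVs, a log2 fold change of 0.97 ± 0.17, and 0.87 with trends removed, with an adjusted p of 0.00321. At 0.24 mg/mL it was at -0.33 ± 0.16 and did not pass. The long non-coding RNA LNCOC1 was at 1.22, 2.04 and 1.55 CPM against 2.64, 3.77 and 2.96 CPM, a log2 fold change of -0.97 ± 0.23, and -1.0 with trends removed, with an adjusted p of 0.0185. LNCOC1 was at 0.30 ± 0.22 at 0.24 mg/mL and did not pass. Next on the higher side were LACC1, METTL7A, BCO2 and SLC44A5, at 0.81 to 0.69. On the lower side were ALDOA, an enzyme of glycolysis, TEKT4P2, a pseudogene, MT2A, a metallothionein, and DHDH, at -0.94 to -0.68. Of these 8, ALDOA alone passed with trends removed, at -0.85 with an adjusted p of 0.0232, and at 0.24 mg/mL it was at -0.16 ± 0.16. A second gene model overlaps ALDOA on its strand, so reads of the gene could be split between the models and its value is uncertain. The same holds for LACC1, SLC44A5 and TEKT4P2, and for BCO2, which 4 models overlap on its strand.

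With trends removed, CDK2AP1 and TFRC had the smallest p at 0.048 mg/mL. CDK2AP1, a small protein that binds the kinase CDK2, and RAB12 below were chosen after their values were seen. CDK2AP1 was at 178, 187 and 179 CPM with HCC+ EVs and 125, 128 and 137 CPM with HCC- EVs, and its log2 fold change was 0.48 with trends removed, with an adjusted p of 7.63e-09. With 0.24 mg/mL it was at 192, 173 and 176 CPM against 183, 192 and 195 CPM, a log2 fold change of -0.08 ± 0.05, and the difference between the doses was -0.56 ± 0.07 with an adjusted p of 0.000623, and -0.56 ± 0.06 with trends removed, with 1.44e-06. RAB12, a small GTPase of endosomal transport, was at 27.9, 31.3 and 28.8 CPM against 20.3, 20.6 and 20.6 CPM at 0.048 mg/mL, a log2 fold change of 0.53 ± 0.08, and 0.48 with trends removed, with an adjusted p of 0.000138. It was at 27.4, 28.4 and 27.9 CPM against 27.2, 26.3 and 29.8 CPM at 0.24 mg/mL. In both genes the HCC- libraries at 0.048 mg/mL lay outside the range of the other 9.

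**Figure D4:**
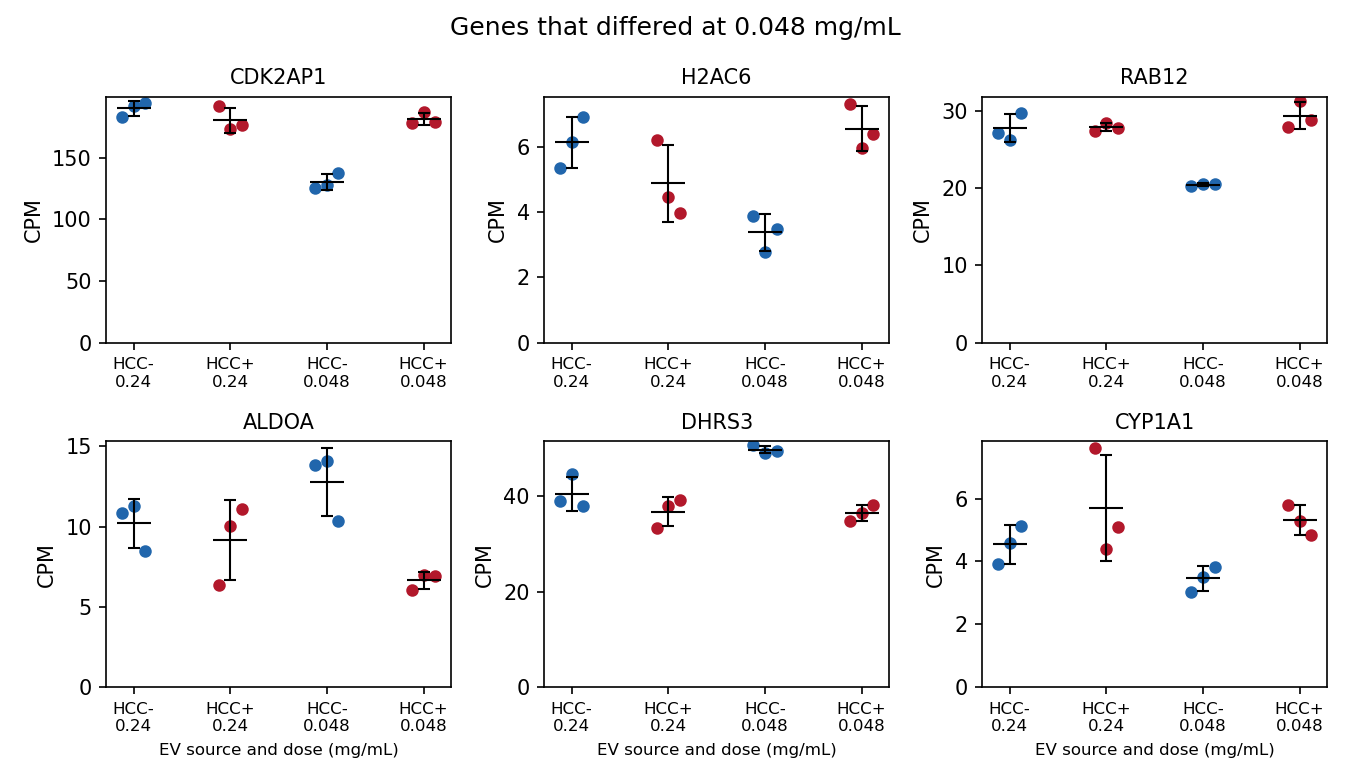
Levels (y axes, CPM with TMM factors) of 6 genes in the 12 libraries by EV source and dose (x axis), with points for libraries, long bars for means of 3 and whiskers for ± 1 SD. In CDK2AP1, H2AC6, RAB12 and CYP1A1 the 3 HCC- libraries at 0.048 mg/mL lie below the HCC+ libraries of that dose, and in ALDOA and DHRS3 above them.

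The counts in lists at 0.048 mg/mL stand against 7.76% higher and 8.29% lower over all genes tested, and with trends removed against 0.378% and 0.756%. Of 28 ribosomal protein genes 16 were lower and 0 higher, with a median of -0.14, and with total count scaling 13 were lower and 0 higher. With trends removed 5 were lower, with a median of -0.13. RPL13 was at -0.29 ± 0.06 and RPS2 at -0.25 ± 0.05, which were -0.17 and -0.10 and did not pass with trends removed, and RPL32 at -0.19 ± 0.05 was among the 5. Of 18 immediate early genes, which cells switch on within minutes of a signal, 8 were lower and 0 higher, with IER2 at -0.50 ± 0.08, JUNB at -0.42 ± 0.13 and MYC at -0.17 ± 0.05. With total count scaling 6 immediate early genes were lower and 0 higher. With trends removed IER2 alone was lower, at -0.30, and JUND was higher. In nuclear genes of oxidative phosphorylation 6 of 21 were lower, and with trends removed COX5A, at -0.24, and COX4I1, at -0.21, were. The tonicity genes, which cells use against osmotic stress, had 4 of 9 higher, with SLC5A3 at 0.38 ± 0.08 and NFAT5 at 0.28 ± 0.06, and with trends removed 0 passed.

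Against the same shares over all genes, the p53 targets were mixed, with 6 of 19 higher, such as RRM2B at 0.45 ± 0.08 and MDM2 at 0.28 ± 0.06, and 4 lower, such as FDXR at -0.31 ± 0.06. With total count scaling 6 p53 targets were higher and 2 lower. With trends removed RRM2B alone passed, at 0.23. The amino acid and ATF4 list had 2 of 24 higher and 9 lower, with CHAC1 at -0.44 ± 0.09 and ASNS at -0.38 ± 0.12, and with trends removed 0 passed. The replication histones had 2 of 9 higher with and without the trends, H2AC6 and H3C6, which was at 2.96, 2.35 and 1.95 CPM against 0.879, 1.13 and 0.906 CPM. Most histone mRNAs end without a poly(A) tail, so poly(A) libraries hold few of their reads. Beside these lists, the colon epithelium markers had 4 of 9 lower and 0 higher, KRT8, KRT18, KRT19 and CLDN7, and 0 with trends removed. With total count scaling 3 of these markers were lower and 1 higher. Of 6 non-coding RNAs listed as signs of RNA quality 3 were tested, and all 3 were positive, with a median of 0.31, and NEAT1 was higher, at 0.31 ± 0.09 with an adjusted p of 0.0266, and 0.21 with trends removed, which did not pass. The part of either list in the other counts was not tested. No member of any of these lists passed at 0.24 mg/mL.

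**Figure D5:**
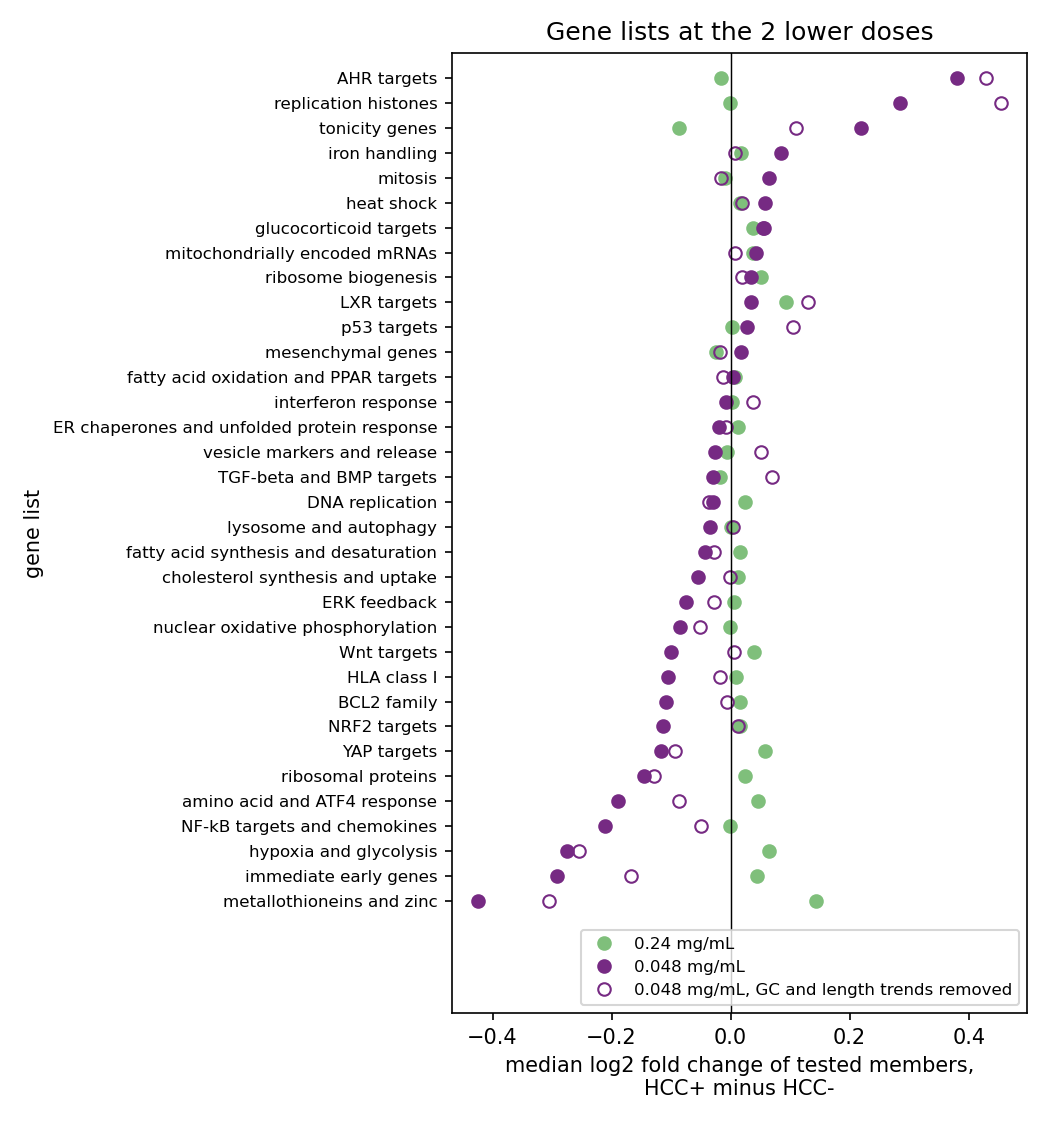
Median log2 fold change of HCC+ minus HCC- (x axis) over the tested members of each pathway list with at least 5 of them (y axis), at 0.24 mg/mL (green), at 0.048 mg/mL (filled purple) and at 0.048 mg/mL with GC and length trends removed (open purple). Medians lie between -0.09 and 0.14 at 0.24 mg/mL, between -0.42 and 0.38 at 0.048 mg/mL and between -0.31 and 0.45 with the trends removed.

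The source effects at the 2 doses were then compared directly. Their difference passed for 1191 genes, or 6.62%, 667 of them more positive at 0.24 mg/mL and 524 more positive at 0.048 mg/mL, and scaling to the total count alone turned this split to 493 and 863. With trends removed 22 genes passed, or 0.122%, 10 of which were among the 1191, and with all 21 libraries in the fit 0 did. The count depended on single libraries. It was 1 without HCC+ 0.24 replicate 2 or without HCC+ 0.048 replicate 3, and 3307 without HCC- 0.24 replicate 2. It was 1867 and 214 without HCC+ 0.24 replicates 1 and 3, 303 without HCC+ 0.048 replicate 2, 442 and 159 without HCC- 0.24 replicates 1 and 3, and 463 and 190 without HCC- 0.048 replicates 1 and 2. Among called genes with a symbol and a mean log2 CPM of at least 1, whether or not libraries overlapped, the largest differences were as follows. On the side of 0.24 mg/mL they were LNCOC1 at 1.28 ± 0.32 and DHDH at 1.05 ± 0.31. On the side of 0.048 mg/mL they were H2AC6 at -1.30 ± 0.23, ARHGEF10 at -1.25 and LACC1 at -1.10. Of these 5 genes H2AC6 alone passed with trends removed, at -1.18 with an adjusted p of 0.0157. Of the 12178 genes, 66, or 0.542%, had libraries that did not overlap on the same side at both doses, and 191, or 1.57%, on opposite sides.

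The source effect at 1.2 mg/mL differed from the mean of the lower doses for 5348 genes, or 27.3% of 19556. Of these 3601 (18.4%) were more positive at 1.2 mg/mL and 1747 more negative. With total count scaling the median of all genes shifted by -0.17 and the split became 1797 and 3483. EXO1, a nuclease of DNA repair, was at 54.3 ± 3.46 CPM with HCC+ EVs and 54.5 ± 3.70 CPM with HCC- EVs over the lower doses (SD, n = 6). At 1.2 mg/mL it was at 38.3, 51.2 and 49.1 CPM against 12.8, 14.6 and 10.3 CPM, and the difference of the source effects was 1.89 ± 0.12, with an adjusted p of 1.31e-12. All 20 tested DNA replication genes had a more positive source effect at 1.2 mg/mL and passed, with a median difference of 1.09, while over both lower doses 0 of the 20 passed. In the cholesterol list 21 of 24 passed on the more positive side, with a median of 0.51. AKR1B1, an aldose reductase, was on the more negative side, at 68.5 ± 1.43 CPM with HCC+ EVs and 70.0 ± 4.27 CPM with HCC- EVs over the lower doses. At 1.2 mg/mL it was at 110, 77.5 and 77.9 CPM against 233, 248 and 395 CPM.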

How the data were processed

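Gene counts of 21 poly(A) RNA libraries were used as the authors deposited them, unnormalised. Per the submitters' processing notes, cutadapt 3.4, HISAT2 2.2.1 and featureCounts 2.0.1 were used with GRCh38 (hg38). Which annotation, strand setting and treatment of multimapping reads was used is not given in the sources read, so reads of overlapping genes or near-identical copies may be misassigned. Gene lengths were those deposited with the counts, and GC content was that of the longest GENCODE v29 transcript of each gene. Symbols came from a list of gene names and, where it had none, from RefSeq, and 41967 of 65065 gene IDs had a symbol.

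Samples were grouped by source and dose from the labels. Counts were tested with edgeR 4.0.16 (glmQLFit with robust estimates, TMM factors, filterByExpr) in R 4.3.3, and an adjusted p under 0.05 (Benjamini-Hochberg over all genes tested) was called. The comparison over both doses used dose and source as additive terms in the 12 libraries, single doses and the dose difference used 4 group means, and contrasts with the 1.2 mg/mL or blank libraries added those groups. To remove trends, each library's log2 deviation was fitted on GC content and length (natural splines, 5 degrees of freedom, 11096 genes of mean log2 CPM of at least 2) and entered as an offset. Alternatives were RLE factors, total count scaling, no filter on low counts, DESeq2 1.42.0, a replicate block, all 21 libraries in the fit, trend removal, leaving out each library and, added after seeing the data, 4 group means averaged over the doses. The scripts were tested on simulated data. Levels are CPM with TMM factors, not per length, so they are compared between libraries and not between genes.

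Named genes were the called genes of largest change with a mean log2 CPM of at least 1 (up to 12 a direction over both doses, up to 5 elsewhere). Over both doses and in single-dose contrasts, libraries of the sources were not to overlap within a dose. Over both doses the genes were filled to 5 a direction by smallest p. Members of the list a sentence is about were named too. The comparison, lists and members were chosen with earlier results of these data known.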

Additional observations from a re-analysis of the deposited data

Results flagged for a closer look

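The following source effects differed between doses by a direct test of the difference (edgeR's quasi-likelihood test with Benjamini-Hochberg adjustment, log2 scale). Between the 2 lower doses, 0.24 minus 0.048 mg/mL, the difference was 1.28 for LNCOC1, 1.05 for DHDH, 0.90 for the pseudogene RPL7AP6, and 0.81 for both CRACR2B and LENG9. It was -1.30 for H2AC6, -1.25 for ARHGEF10, -1.10 for LACC1, -1.07 for LINC01355 and -0.92 for TET1. Among the genes described at both doses it was -0.31 for TFRC and -0.56 for CDK2AP1. H2AC6 passed in 17 of 20 alternative fits, TFRC and TET1 in 12 of 20 and LENG9 in 10 of 20. LNCOC1 passed in 11 of 19, ARHGEF10 and LACC1 in 10 of 19, RPL7AP6 and LINC01355 in 9 of 19, and DHDH and CRACR2B in 8 of 19. With all 21 libraries in the fit 0 genes passed. These differences include the 3 HCC- libraries at 0.048 mg/mL that stood apart in GC trend, and the part of that trend in them was not tested gene by gene beyond the values with trends removed, where 22 genes passed.

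Between 1.2 mg/mL and the mean of the lower doses, the difference was 2.75 for RIBC2, 1.89 for EXO1, 1.71 for MIR210HG, 1.69 for ASF1B and 1.65 for RFC5. It was -2.06 for H2BC21, -1.96 for DNAH10, -1.81 for MIR23AHG, -1.73 for CMYA5 and -1.69 for AKR1B1.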

How the results depend on the processing

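The TFRC call over both lower doses held in all 21 alternatives. The count of called genes there, 1 as reported, was 14 without the filter on low counts, 2 with all 21 libraries in the fit and 5 with 4 group means averaged over the doses, and 1 in every fit that left out a library. At 0.24 mg/mL the count of 0 became 1 without the filter, 2 in DESeq2, 1 with GC and length trends removed and 1 with trends removed and the replicate block. At 0.048 mg/mL the count of 2887 became 693 with all 21 libraries, 204 with trends removed, 263 with trends removed and the block, and 1067 to 2776 when a library was left out. The split of 1396 higher and 1491 lower was 1071 and 1788 without the filter. The dose difference, 1191 genes, became 2202 in DESeq2, 0 with all 21 libraries, 22 with trends removed, 53 with trends removed and the block, and 1 to 3307 when a library was left out. HCC+ against the blank, 1 gene, became 24 without the filter, 3 in DESeq2, 3 with the block, 11 with trends removed, 24 with both, and 1 to 513 when a library was left out. HCC- against the blank, 1 gene, became 508, 581, 422, 8 and 47 in the same order, and 0 to 4044 when a library was left out. For TFRC in that contrast the log2 value ran from -0.036 without blank replicate 2 to 0.157 without blank replicate 1 among fits that left out a library, and it was 0.167, the highest of all alternatives, with trends removed and the block. Values near 0 changed sign with trends removed for COL1A1, at 0.0096, and with trends removed and the block for COL1A1, at 0.0106, and CD81, at 0.00043. The cause of these changes was not tested.

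Replicate numbers did not go together across all groups. Of 18 pairs of same-numbered libraries at the lower doses, within and between the sources, 5 had a correlation of deviations over 0.1. The range was -0.18 to 0.38. Between the sources, those over 0.1 were HCC+ 0.24 replicate 2 with HCC- 0.24 replicate 2, at 0.38, and with HCC- 0.048 replicate 2, at 0.13. The rest of the 5 were within HCC-, where all 3 same-numbered pairs across the doses were over 0.1, at 0.15 to 0.24. Against the blank, all 3 such pairs were over 0.1 for HCC- at 0.24 mg/mL, at 0.12 to 0.54, and 0 of 3 for HCC- at 0.048 mg/mL, at 0.0062 to 0.090. The labels do not say that a number marks a shared batch. The replicate block gave 1 call over both doses, 0 at 0.24 mg/mL, 2946 at 0.048 mg/mL, 1442 for the dose difference and 5423 for the difference to 1.2 mg/mL, where 5348 were reported. Among genes with a mean log2 CPM of at least 1, 91.6% at 0.048 mg/mL and 96.4% at 0.24 mg/mL had an interval within 1.5-fold.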

Other observations

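DHRS3 and BCO2, both enzymes that act on retinoids or their precursors, passed at 0.048 mg/mL and were set side by side after their values were seen. DHRS3, which reduces retinal, was at a log2 fold change of -0.44 ± 0.07 with an adjusted p of 0.000996 in edgeR's quasi-likelihood test, and -0.32 with trends removed. BCO2, which cleaves carotenoids, was at 0.74 ± 0.22 with an adjusted p of 0.0199, and did not pass with trends removed. At 0.24 mg/mL neither passed. Other gene models overlap both genes on their strands, 2 for DHRS3 and 4 for BCO2, so reads could be split between models and these values are uncertain.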
